A study of Mus musculus with 32 samples.

Results

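A set of 10 genes of the kidney's connective tissue was followed through every library: the small leucine-rich proteoglycans *Dcn* (decorin), *Bgn* (biglycan), *Lum* (lumican) and *Ogn* (osteoglycin), the large hyaluronan-binding proteoglycan *Vcan* (versican), the glycoproteins *Fn1* (fibronectin), *Postn* (periostin) and *Tnc* (tenascin C), the elastic protein *Eln* (elastin) and the adhesion receptor *Vcam1*. They were taken as a list of named stromal matrix genes, drawn up with earlier results of these data known, and all 10 were found among the 55806 gene identifiers of the deposited count tables and passed the low-count filter in every comparison. Mouse embryos carried a heterozygous conditional knock-in of a Wilms tumor mutation in the YEATS domain of ENL (*Mllt1*), a chromatin reader, made in C57BL/6J mice, T1 being a small insertion and T3 a small deletion expressed from the endogenous promoter, and polyadenylated RNA was sequenced in 32 libraries. In the Six2 lineage, Six2-TGCtg/+;EnlT1/+ (Six2-ENL T1) and Six2-TGCtg/+;EnlT3/+ (Six2-ENL T3) were compared with Six2-TGCtg/+;Enl+/+ (WT) in whole E18.5 kidneys, with 2 libraries of each. T1 and WT were also compared in sorted tdT+ Six2 cells, with 3 libraries of each per stage, E14.5 and E18.5. In the Foxd1 lineage, Foxd1GC/+;EnlT1/+ (Foxd1-ENL T1) was compared with Foxd1GC/+;Enl+/+ (WT) in sorted tdT+ cells with 4 libraries of each, and in whole kidneys with 3 of each, all at E18.5.

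The Six2-TGC transgene drives Cre in nephron progenitors, so that nephron epithelium carries the mutation and stroma does not, while Foxd1GC drives Cre in stromal progenitors and replaces 1 *Foxd1* copy. The controls carried the same Cre allele, and the sorted cells of both genotypes the LSL-tdT reporter. The Six2-TGC transgene is known to contain *Six3* and to express it out of place, in WT and mutant alike. Read counts per gene do not separate mutant from wildtype *Mllt1* transcripts.

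Matrix proteoglycans are core proteins that can carry glycosaminoglycan chains. The small leucine-rich ones bind collagen fibrils and growth factors, and versican binds hyaluronan in loose, migratory mesenchyme. Fibronectin, periostin and tenascin C are read by integrins on neighbouring cells, elastin forms elastic fibres, and VCAM1 is a cell surface ligand of integrin α4β1. In the embryonic kidney such genes are known mainly from interstitial fibroblasts and their progenitors, whereas nephron progenitors carry integrin α8β1, whose ligands include fibronectin and nephronectin.

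On GRCm38, *Dcn* (chr10:97479609-97518143, + strand) and *Lum* (chr10:97565128-97572703, +) lie 46984 bp apart, with the small leucine-rich genes *Kera* and *Epyc* next to *Lum*. *Ogn* (chr13:49608046-49624501, +) is the last of a row *Ecm2*, *Aspn*, *Omd* and *Ogn*, 15223 bp from *Omd*. The others lie apart: *Bgn* at chrX:73483602-73495933 (+), *Vcan* at chr13:89655312-89742509 (−), *Fn1* at chr1:71585520-71653200 (−), *Postn* at chr3:54361109-54391037 (+), *Tnc* at chr4:63959785-64047015 (−), *Eln* at chr5:134702593-134747323 (−) and *Vcam1* at chr3:116109949-116129688 (−). Reads were counted without strand, and exons of other genes overlapped at most 3.30% of the exon length of any member, that of *Eln*.

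Promoters of *Bgn*, *Ogn*, *Vcan*, *Postn* and *Tnc* were found in the RefSeq table (GRCm38.p6), 5 of 10. Shown are the 250 bases before the start of *Ogn* (chr13:49607765-49608014, +) and *Postn* (chr3:54360857-54361106, +), the members whose T1 effect in Six2 cells differed most between stages, and of *Tnc* (chr4:64047016-64047265, −) and *Vcan* (chr13:89742513-89742762, −), the members that fell in those cells at E14.5. Capitals mark matches on either strand to TATAAA (the TATA box), to the AP-1 site TGANTCA, to the TEAD core GGAATG and to the E-box CACCTG.
Ogn promoter: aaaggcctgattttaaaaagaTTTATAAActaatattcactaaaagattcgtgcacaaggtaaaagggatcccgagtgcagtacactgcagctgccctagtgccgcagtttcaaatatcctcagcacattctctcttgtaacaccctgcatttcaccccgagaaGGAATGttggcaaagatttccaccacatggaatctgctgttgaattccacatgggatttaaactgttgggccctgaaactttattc
Postn promoter: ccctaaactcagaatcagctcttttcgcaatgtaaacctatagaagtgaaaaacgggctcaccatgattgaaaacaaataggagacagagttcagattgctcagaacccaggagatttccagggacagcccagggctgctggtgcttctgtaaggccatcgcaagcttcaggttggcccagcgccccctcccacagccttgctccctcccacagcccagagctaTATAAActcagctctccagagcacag
Tnc promoter: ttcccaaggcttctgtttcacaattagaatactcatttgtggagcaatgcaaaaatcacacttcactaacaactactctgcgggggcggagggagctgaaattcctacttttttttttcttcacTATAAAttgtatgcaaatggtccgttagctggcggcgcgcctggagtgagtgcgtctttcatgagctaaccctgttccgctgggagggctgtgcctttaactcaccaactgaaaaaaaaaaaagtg
Vcan promoter: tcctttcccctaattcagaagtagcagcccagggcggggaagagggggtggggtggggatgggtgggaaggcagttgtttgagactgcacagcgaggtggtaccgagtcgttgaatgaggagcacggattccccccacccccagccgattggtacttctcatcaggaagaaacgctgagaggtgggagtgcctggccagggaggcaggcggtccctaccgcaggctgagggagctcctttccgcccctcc
TATAAA stood 26 to 21 bases before the start of *Postn* and 126 to 121 bases before that of *Tnc*, and in *Ogn* on both strands in 1 overlapping stretch between 229 and 222 bases before the start. *Ogn* also held GGAATG 86 to 81 bases before its start. The windows of *Vcan* and *Bgn* held none of the 4 motifs. Of 32851 mouse promoter windows of the same length, 12.4% held TATAAA, 12.6% held the TEAD core, 6.75% the AP-1 site and 17.2% the E-box.

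Total counts per library ran from 106005614 to 157266455 in whole Six2 kidneys, 76510702 to 137888792 in sorted Six2 cells, 67137194 to 79343015 in whole Foxd1 kidneys, and 2557443 to 3508381 in sorted Foxd1 cells. Levels are CPM, read counts scaled to library size with TMM factors within a deposited table, and between tables they are set side by side only. The test was the quasi-likelihood test of edgeR, its p-values adjusted over all tested genes after Benjamini and Hochberg, and a gene was called between genotypes where the adjusted p was below 0.05 and the change exceeded 1.5-fold. The labels do not say whether libraries of a group came from separate embryos, so the p-values measure the spread between these libraries. Transcripts of Y-linked genes were present in all 8 sorted Foxd1 libraries and in 0 of 6 whole Foxd1 kidneys. In sorted Six2 cells they were present in 1 of 3 WT and 2 of 3 T1 libraries at E14.5, and in 1 of 3 of each at E18.5. In whole Six2 kidneys they were present in 1 of 2 WT, 2 of 2 T1 and 0 of 2 T3 libraries, so sex coincides with allele there.

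The sorted WT populations at E18.5 carried the markers of their labels: 10 stromal identity genes summed to 4326 to 4537 CPM in Foxd1 and 741 to 777 CPM in Six2 cells, and 8 nephron progenitor markers to 178 to 225 CPM and 1089 to 1412 CPM. Per kilobase of exon, sorted Foxd1 cells had the highest mean level for *Dcn* (119 CPM per kb), then *Bgn* (92.3), *Ogn* (91.2), *Lum* (83.0) and *Fn1* (77.4), and each gene in that order overlapped the next over the 4 libraries. *Postn* followed at 25.0 CPM per kb, apart from *Fn1*, and *Tnc*, *Eln*, *Vcan* and *Vcam1* lay between 11.3 and 16.4. In sorted Six2 cells of E18.5 the order began with *Vcan* (133 CPM per kb), apart from *Tnc* (44.3), which overlapped *Fn1* (39.9), and the remaining 7 members lay between 0.880 (*Lum*) and 6.06 (*Bgn*). *Vcan* and *Tnc* were thus the members with more RNA in nephron-lineage cells than in sorted stroma, at 1133% and 270% of the stromal mean, whereas *Dcn*, *Lum* and *Ogn* stood at 1.33%, 1.06% and 2.18% of it. These percentages compare tables of separate runs and carry no test.

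**Figure D1:**
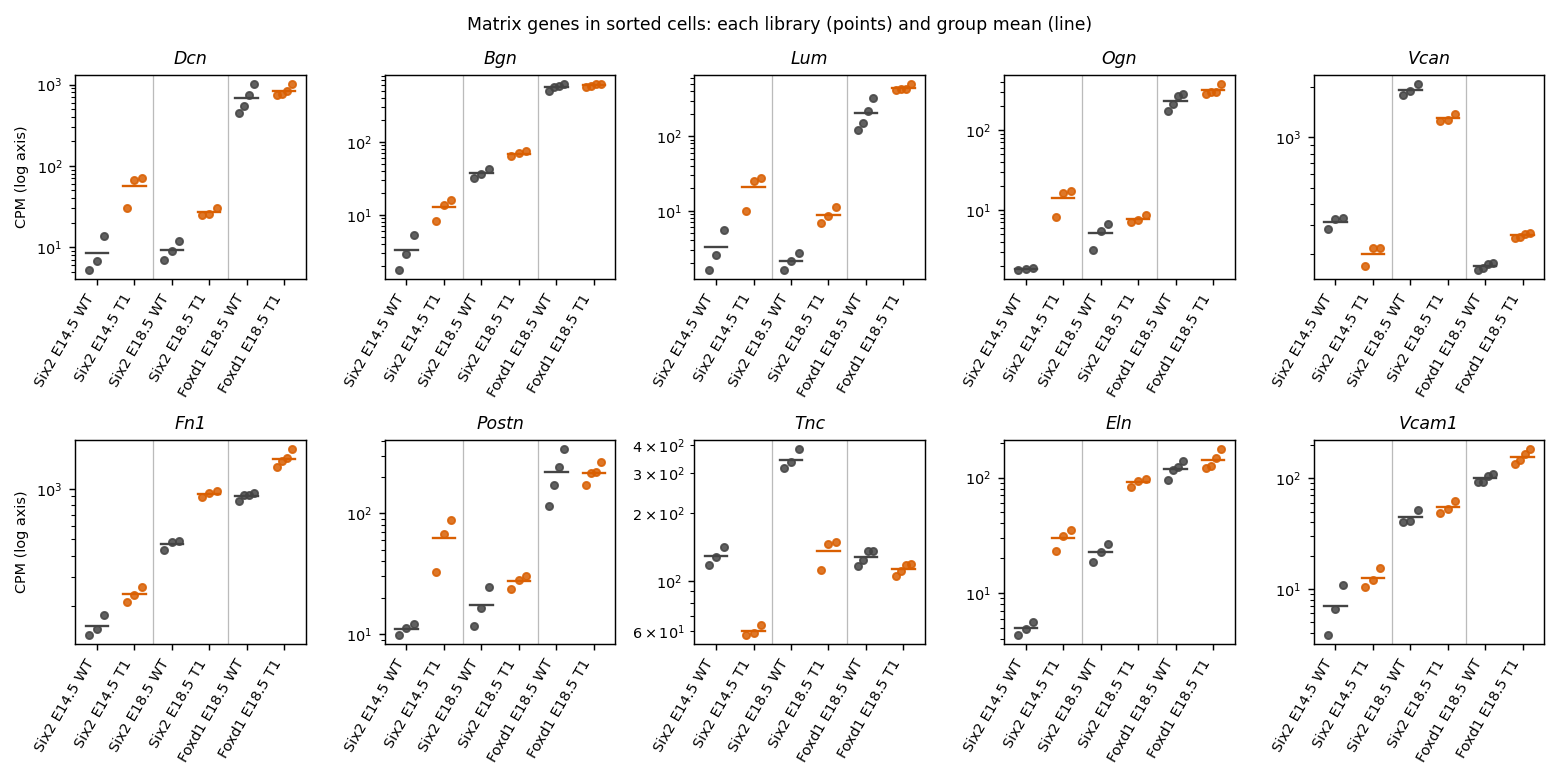
CPM of each matrix gene (log axis, its range set per panel) in every sorted library: points are libraries, lines group means, grey WT and orange ENL T1. *Dcn*, *Bgn*, *Lum*, *Ogn* and *Postn* sit higher in Foxd1 than in Six2 cells, *Vcan* sits highest in Six2 cells of E18.5, and in Six2 cells *Tnc* and *Vcan* of T1 lie below WT at both stages.

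Sorted Six2 cells of E14.5 were compared to learn what T1 did to these genes in the nephrogenic lineage early on. Of 10 members, 7 were higher in Six2-ENL T1 and 2 were lower, where 4.11% of 22387 tested genes were called higher and 2.28% lower. The median log2 fold change of the members was 2.23, against 0.00 over all tested genes. The 5 largest increases were those of *Ogn*, *Dcn*, *Lum*, *Eln* and *Postn*, which WT cells held at 13.7 CPM or less in every library.

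*Dcn* measured 5.28, 6.79 and 13.7 CPM in WT and 71.7, 30.1 and 66.4 CPM in T1, a log2 fold change of 2.73 ± 0.42 (SE, adjusted p = 0.00417). *Ogn* was the most tightly spread in WT, at 1.89, 1.80 and 1.81 CPM, against 17.5, 8.11 and 16.5 CPM in T1 (2.95 ± 0.28, adjusted p = 0.000427). The groups did not overlap for either gene, and T1 replicate 2 was the lowest mutant library for both. *Lum*, a keratan sulfate proteoglycan, measured 2.57, 1.63 and 5.49 CPM in WT and 24.8, 9.88 and 27.1 CPM in T1 (2.69 ± 0.50, adjusted p = 0.00959). *Bgn* measured 2.88, 1.78 and 5.35 CPM against 13.6, 8.18 and 16.2 CPM (1.94 ± 0.39, adjusted p = 0.0141). The call of *Bgn* was narrow: without WT replicate 1, T1 replicate 1 or T1 replicate 3 its adjusted p was between 0.0510 and 0.0530.

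*Postn* measured 9.83, 11.1 and 11.999 CPM in WT and 87.2, 32.8 and 67.6 CPM in T1 (2.53 ± 0.31, adjusted p = 0.00151). *Eln* had the smallest adjusted p of the list, with 4.87, 4.32 and 5.59 CPM in WT and 35.3, 23.1 and 31.2 CPM in T1 (2.62 ± 0.17, adjusted p = 7.8e-05). Both were apart from WT in every library. *Fn1*, already abundant, rose less, from 177, 135 and 146 CPM to 234, 211 and 259 CPM (0.64 ± 0.11, adjusted p = 0.00652), and its fold change was under 1.5 without WT replicate 2 (0.55) or T1 replicate 3 (0.56). *Tnc* fell from 117, 141 and 128 CPM to 63.8, 58.8 and 57.7 CPM (-1.08 ± 0.07, adjusted p = 9.59e-05). *Vcan* fell from 331, 324 and 283 CPM to 169, 217 and 219 CPM (-0.62 ± 0.10, adjusted p = 0.0055), with a fold change under 1.5 when scaled by library size only (-0.57) or without WT replicate 1 (-0.57) or T1 replicate 1 (-0.51). *Vcam1* overlapped, at 3.83, 6.54 and 10.8 CPM in WT and 12.04, 10.4 and 15.4 CPM in T1 (adjusted p = 0.136), and passed without WT replicate 3 (adjusted p = 0.0161).

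Every member that rose was lowest in T1 replicate 2, while the WT libraries ordered these members less alike. T1 replicate 2 was the lowest T1 library for 8 of 10 members and WT replicate 3 the highest WT library for 6, both counts including *Vcam1*, which was not called. *Ogn* (1.80 to 1.89 CPM in WT) and *Fn1* were highest in WT replicate 1. The summed level of the 10 stromal identity genes (*Foxd1*, *Meis1*, *Pdgfra* and others, none a matrix gene) was also lowest in T1 replicate 2, at 659 CPM against 765 and 787 CPM, and ran from 633 to 660.3 CPM in WT. Of these 10 genes, 6 were higher in T1, led by *Penk* (2.41), *Pdgfra* (2.11), *Tbx18* (1.99) and *Ntn1* (1.45), while *Foxd1* itself, the stromal transcription factor, fell (-0.96 ± 0.16, adjusted p = 0.00571). None of the 10 was at 0 in any group. The 8 macrophage markers summed to 12.4, 28.4 and 95.5 CPM in WT and 42.9, 41.7 and 82.2 CPM in T1, with 0 of 8 called, and 8 nephron progenitor markers fell in 6 cases. In bulk RNA a change in the number of cells of a type and a change in RNA per cell cannot be told apart, and the part of other cells in the sort in these results was not tested.

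Sorted Six2 cells of E18.5 gave the same comparison 4 days later. Of 10 members, 6 were higher in T1 and 1 lower, with 6.14% of 22685 tested genes called higher and 5.54% lower, and the member median was 0.78. *Eln* was 22.7, 26.5 and 18.4 CPM in WT and 93.0, 82.8 and 98.1 CPM in T1, 4.07-fold higher (log2 2.02 ± 0.12, adjusted p = 5.36e-08). *Lum* rose by a like factor from a low base, 2.13, 2.70 and 1.63 CPM to 6.79, 11.2 and 8.46 CPM (2.03 ± 0.22, adjusted p = 1.6e-05). *Dcn* went from 8.91, 11.8 and 6.89 CPM to 24.6, 30.1 and 25.4 CPM (1.54 ± 0.16, adjusted p = 1.44e-05). No library of one genotype reached those of the other for these 3 genes.

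*Fn1* was 2.01-fold higher, from 481, 485 and 432 CPM to 894, 968 and 939.8 CPM (1.01 ± 0.07, adjusted p = 2.22e-07). *Bgn* was 42.3, 36.4 and 32.2 CPM against 63.3, 73.8 and 69.9 CPM (0.91 ± 0.10, adjusted p = 1.95e-05). Both groups were again apart. *Postn*, at 11.6, 24.3 and 16.4 CPM against 23.5, 28.0 and 30.5 CPM, passed (0.66 ± 0.20, adjusted p = 0.0349) although the libraries overlapped. It did not pass with DESeq2 (adjusted p = 0.156) or without WT replicate 1 (0.0638), WT replicate 3 (0.109), T1 replicate 2 (0.106) or T1 replicate 3 (0.142).

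*Tnc* fell again, from 336, 315 and 383 CPM to 112, 149 and 146 CPM (-1.34 ± 0.11, adjusted p = 1.12e-06). *Vcan*, the most abundant member in these cells, was 1887, 1788 and 2090.2 CPM in WT and 1261, 1277 and 1371 CPM in T1, with no overlap. Its adjusted p of 6.64e-05 passed while its change of -0.55 ± 0.07 stayed under 1.5-fold, and it passed both without WT replicate 2 (-0.61) or T1 replicate 3 (-0.60). *Ogn* measured 5.46, 6.71 and 3.15 CPM against 8.70, 7.13 and 7.46 CPM and missed the threshold (0.61 ± 0.22, adjusted p = 0.0674), but passed with DESeq2 (0.0210), edgeR's exact test (0.0390), scaling by library size (0.0327), no low-count filter (0.000832) and without WT replicate 2 (0.0197). *Vcam1* measured 41.3, 51.9 and 40.4 CPM against 62.4, 48.4 and 52.8 CPM (0.30 ± 0.11, adjusted p = 0.0757).

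The WT stroma of E18.5 gave a scale for these levels. The gain of T1 over WT in Six2 cells amounted to 2.53% of the sorted stromal level for *Dcn*, 5.70% for *Bgn*, 3.27% for *Lum*, 1.14% for *Ogn* and 4.55% for *Postn*. For *Eln* it amounted to 58.0% and for *Fn1* to 51.8%, so that T1 cells held 77.0% and 103% of the stromal level of these genes. Among the stromal identity genes the same share was 2.86% for *Penk*, 2.44% for *Pdgfrb*, 7.53% for *Meis1*, 8.56% for *Pdgfra* and 18.6% for *Tbx18*, while *Foxd1* (-41.2%) and *Tcf21* (-2.61%) were lower in T1. In the sorted stroma the Cre allele replaces a *Foxd1* copy, so the share of *Foxd1* is not on the scale of the other genes. Of the 10 identity genes, 4 passed upwards and 2 downwards, with *Tbx18* at 2.90 ± 0.35 and *Foxd1* at -1.93 ± 0.10 on the log2 scale. Their sum was 741 to 777 CPM in WT and 739.8 to 803 CPM in T1. Macrophage markers rose in 6 of 8 cases, from a sum of 36.9 to 39.6 CPM to one of 92.6 to 107 CPM, pericyte and smooth muscle markers rose in 4 of 8 and fell in 2, and nephron epithelium markers fell in 9 of 10. What these cells contributed to the matrix genes was not tested.

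**Figure D2:**
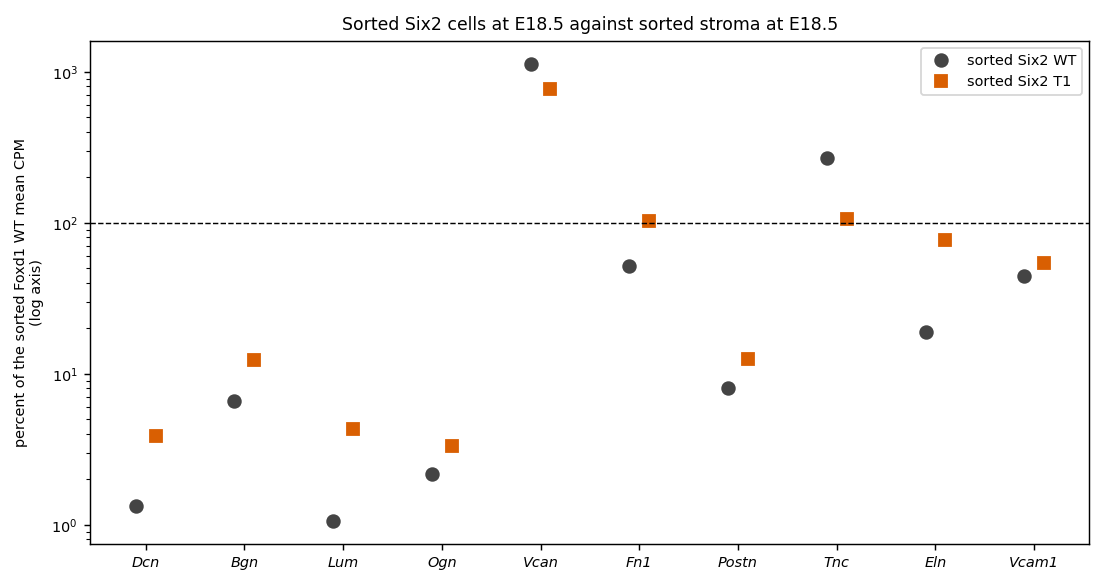
Mean CPM of each matrix gene in sorted Six2 cells of E18.5 (circles WT, squares T1) as a percentage of its mean in sorted Foxd1 WT cells, on a log axis, with a dashed line at 100%. *Fn1* of T1 meets the line at 103% and *Eln* reaches 77.0%, *Dcn* and *Lum* stay under 5%, and *Vcan* lies above the line in both genotypes.

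Both stages were then put in 1 model of the 12 sorted Six2 libraries to test whether the T1 effect differed between the stages, with interactions called at 0.05 and no fold limit. It was smaller at E18.5 for *Ogn* (-2.33 ± 0.39 on the log2 scale, adjusted p = 0.00223) and *Postn* (-1.86 ± 0.42, adjusted p = 0.0138), 2 of 10 members, with 4.22% of 25222 genes called in that direction and 3.94% in the other. For *Dcn* (-1.17 ± 0.48, adjusted p = 0.167) and *Bgn* (-1.02 ± 0.42, adjusted p = 0.166) the difference was of like direction and did not pass. Without WT replicate 3 of E14.5, the library with the highest macrophage sum, *Dcn* (0.0192), *Bgn* (0.00915) and *Vcam1* (0.0432) passed too, and without T1 replicate 2 of E14.5 *Dcn* (0.0496) and *Eln* (0.0343) did. For *Tnc* (-0.25 ± 0.15), *Vcan* (0.07 ± 0.13), *Lum* (-0.65 ± 0.59) and *Fn1* (0.38 ± 0.13, adjusted p = 0.105) no difference between stages was detected. The stages also differed in dissociation, as given below, so age and method cannot be told apart in these interactions.

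In WT Six2 cells themselves, 7 of 10 members were more abundant at E18.5 than at E14.5 with an adjusted p below 0.01 and more than 2-fold, and 0 were less abundant, where 24.8% of 25222 genes were called higher and 20.6% lower. *Bgn* rose most, 11.1-fold (log2 3.47 ± 0.32, adjusted p = 1.93e-07), followed by *Vcam1* (2.66 ± 0.28), *Vcan* (2.62 ± 0.10), *Eln* (2.19 ± 0.16), *Fn1* (1.61 ± 0.10), *Ogn* (1.48 ± 0.28) and *Tnc* (1.42 ± 0.11). *Dcn* (0.10 ± 0.34), *Lum* (-0.58 ± 0.43) and *Postn* (0.67 ± 0.30, adjusted p = 0.0564) did not pass, and *Dcn* and *Lum* changed sign with a library left out. The median of all genes was 0.02 here, against -0.12 with scaling by library size, which turned *Dcn* to -0.04, and 0.15 with DESeq2 or relative log expression factors. Dissociation differed between the stages, with trypsin at E14.5 and collagenase at E18.5, so the method and the age cannot be told apart. Direction of change with age and with T1 went apart for *Vcan* and *Tnc*, which rose with age in WT and were lower in T1 at both ages, and together for *Eln*, *Fn1* and *Bgn*.

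Sorted Foxd1 cells showed what T1 did within the stromal lineage. Of 10 members, 4 were higher and 0 lower, with 3.63% of 12717 tested genes called higher and 2.18% lower, and the member median was 0.36. *Lum* rose from 221, 149, 323 and 119.7 CPM to 503, 435, 414 and 427 CPM (1.14 ± 0.19, adjusted p = 0.000527). *Fn1* rose from 917, 939, 915 and 845 CPM to 1721, 1453, 1346 and 1515 CPM (0.74 ± 0.07, adjusted p = 1.32e-06). *Vcan* rose from 165, 177, 175 and 162 CPM to 269, 254, 265 and 249 CPM (0.61 ± 0.07, adjusted p = 4.34e-06). The 4 mutant libraries lay above all 4 WT libraries for each of them, as they did for *Vcam1*, which went from 109.7, 92.4, 105 and 92.9 CPM to 183, 133, 148 and 164 CPM (0.65 ± 0.10, adjusted p = 0.00015) and was under 1.5-fold without T1 replicate 1 (0.57).

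*Ogn* was 268, 210.1, 284 and 174 CPM in WT and 379, 299.8, 286 and 301 CPM in T1, apart but under 1.5-fold (0.44 ± 0.12, adjusted p = 0.0282). *Dcn*, at 755, 543, 1022 and 451 CPM against 1009, 826, 746 and 769.8 CPM, overlapped (0.28 ± 0.17, adjusted p = 0.356). *Postn* spread most, from 115 to 339.9 CPM in WT and from 171 to 264 CPM in T1 (-0.00 ± 0.21). *Bgn* (502 to 621 CPM in WT, 557 to 616 CPM in T1), *Eln* (94.4 to 139 CPM, 121 to 176 CPM) and *Tnc* (116 to 136 CPM, 106 to 118 CPM) overlapped and did not pass. WT replicate 4 was the lowest WT library for 8 of 10 members. Of the stromal identity genes, *Ntn1* (-1.73), *Tcf21* (-0.99) and *Pdgfrb* (-0.72) were among those that fell, and *Meis2* (0.85) rose, with a sum of 4326 to 4537 CPM in WT and 3248 to 3591 CPM in T1. Macrophage markers rose in 6 of 8 cases (96.6 to 239 CPM in WT, 244 to 334 CPM in T1), and their part in the rise of *Vcam1*, which macrophages can also express, was not tested.

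The effect of T1 differed between the lineages for 5 members in 1 model of the 14 sorted E18.5 libraries. In this model the lineage coincides with the sequencing run, read length and, in part, sex. The Foxd1 effect minus the Six2 effect was positive for *Vcan* (1.15 ± 0.10, adjusted p = 2.69e-08) and *Tnc* (1.14 ± 0.14, adjusted p = 4.72e-06), and negative for *Eln* (-1.78 ± 0.19, adjusted p = 5.91e-07), *Dcn* (-1.28 ± 0.28, adjusted p = 0.00281) and *Bgn* (-0.85 ± 0.12, adjusted p = 3.56e-05). Over all 14869 genes 8.25% were called positive and 7.63% negative. *Vcan* rose in stroma and was lower in T1 in Six2 cells, the population with the higher WT level. *Fn1* (-0.29 ± 0.11, adjusted p = 0.0702), *Vcam1* (0.33 ± 0.16, adjusted p = 0.174), *Ogn* (-0.19 ± 0.25) and *Postn* (-0.67 ± 0.35) did not pass, nor did *Lum* (-0.90 ± 0.33, adjusted p = 0.0744), which passed with scaling by library size (0.0435), with no low-count filter (3.45e-10) and without Six2 T1 replicate 1 (0.0372), Foxd1 WT replicate 2 (0.0383) or Foxd1 WT replicate 4 (0.0137). *Fn1* passed with DESeq2 (0.0351), with scaling by library size (0.0258) and without Foxd1 T1 replicate 1 (0.00662) or Foxd1 WT replicate 4 (0.0426).

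**Figure D3:**
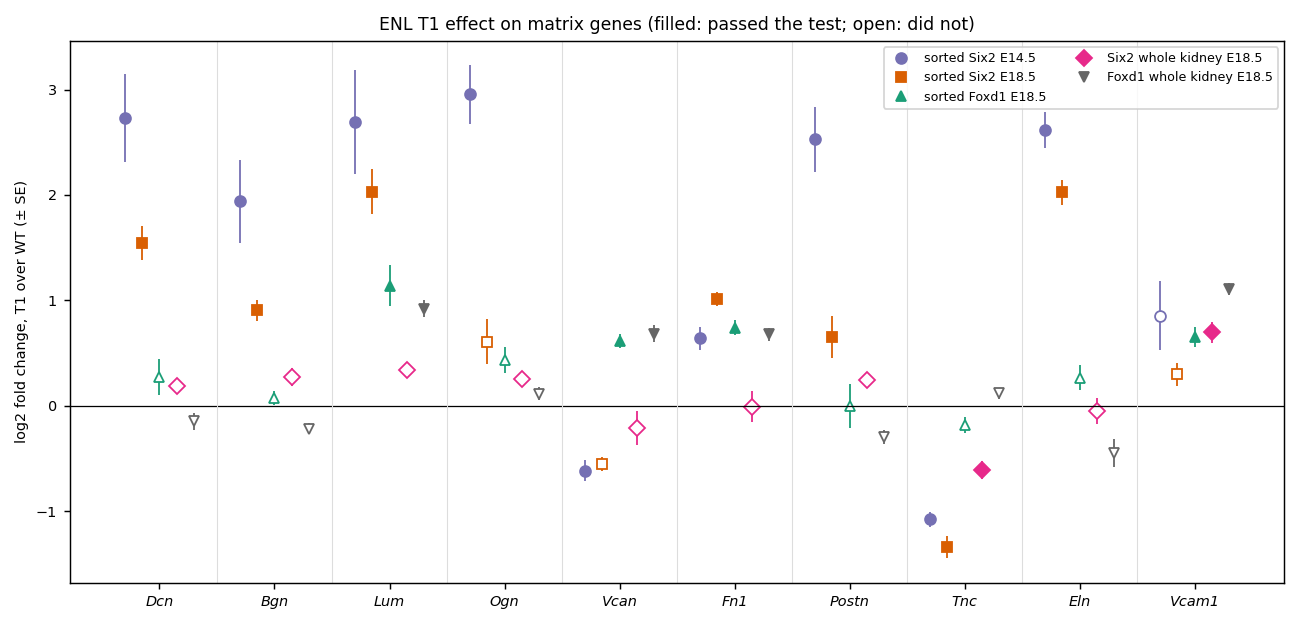
Log2 fold change of T1 over WT (± SE) of each matrix gene in 5 comparisons, with filled symbols where the test passed (adjusted p under 0.05 and over 1.5-fold) and open ones where it did not. *Vcan* and *Tnc* lie below 0 in sorted Six2 cells, and *Vcan* above 0 in both Foxd1 comparisons, while *Lum* lies above 0 in all 5.

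Whole Six2 kidneys, which hold unmutated stroma beside mutant nephron-lineage cells, changed less. In T1, 1 member was higher and 1 lower, where 2.88% of 23931 genes were called higher and 4.88% lower, and in T3, 2 were higher and 1 lower (4.34% and 5.28%). *Vcam1* measured 63.3 and 77.6 CPM in WT, 108 and 121 CPM in T1 (0.70 ± 0.10, adjusted p = 0.00329) and 106 and 107 CPM in T3 (0.59 ± 0.10, adjusted p = 0.006). *Tnc* measured 142 and 165 CPM in WT, 98.0 and 103 CPM in T1 (-0.61 ± 0.08, adjusted p = 0.00267) and 92.3 and 101 CPM in T3 (-0.67 ± 0.08, adjusted p = 0.00149). Both were apart from WT in every mutant library, and both sat close to the 1.5-fold limit. Without WT replicate 1, *Vcam1* was under it (0.56 in T1, 0.46 in T3), and *Tnc* was without WT replicate 2 (-0.47 in T1, -0.54 in T3), and in T1 also without T1 replicate 1 (-0.56) or with scaling by library size (-0.54).

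*Lum* stood at 38.6 and 37.3 CPM in WT, 47.3 and 48.4 CPM in T1 and 60.6 and 60.3 CPM in T3. It passed in T3 (0.67 ± 0.06, adjusted p = 0.000249) and was under 1.5-fold in T1 (0.34 ± 0.06, adjusted p = 0.00648). *Dcn* rose from 204 and 188 CPM in WT to 281 and 253 CPM in T3, *Ogn* from 112 and 114 CPM to 147 and 153 CPM, and *Postn* from 268 and 268 CPM to 379 and 329.7 CPM, with adjusted p-values of 0.00605, 0.0016 and 0.0116 and changes of 0.45, 0.41 and 0.40 that stayed under 1.5-fold. T1 values lay between, at 227 and 218 CPM for *Dcn*, 135 and 135 CPM for *Ogn* and 315 and 321 CPM for *Postn*. *Bgn* (332 to 336 CPM in WT, 394 to 412 CPM in T1, 364 to 423 CPM in T3) did not pass, and *Fn1*, *Eln* and *Vcan* overlapped between WT and both mutants, with WT replicate 2 the higher WT library for all 3. Tested directly, T3 over T1 gave 0 of 10 members in either direction by edgeR's test, with 0.00418% of all genes called higher and 0 lower, and with 1172 genes higher and 548 lower at an unadjusted p under 0.05. Over all genes, edgeR's exact test called 69 higher and 19 lower, DESeq2 54 and 17, and the fit with no low-count filter 207 and 93, while 0 members passed in each of these too. The widest gap between the alleles was that of *Lum* (0.34 ± 0.06, adjusted p = 0.315).

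**Figure D4:**
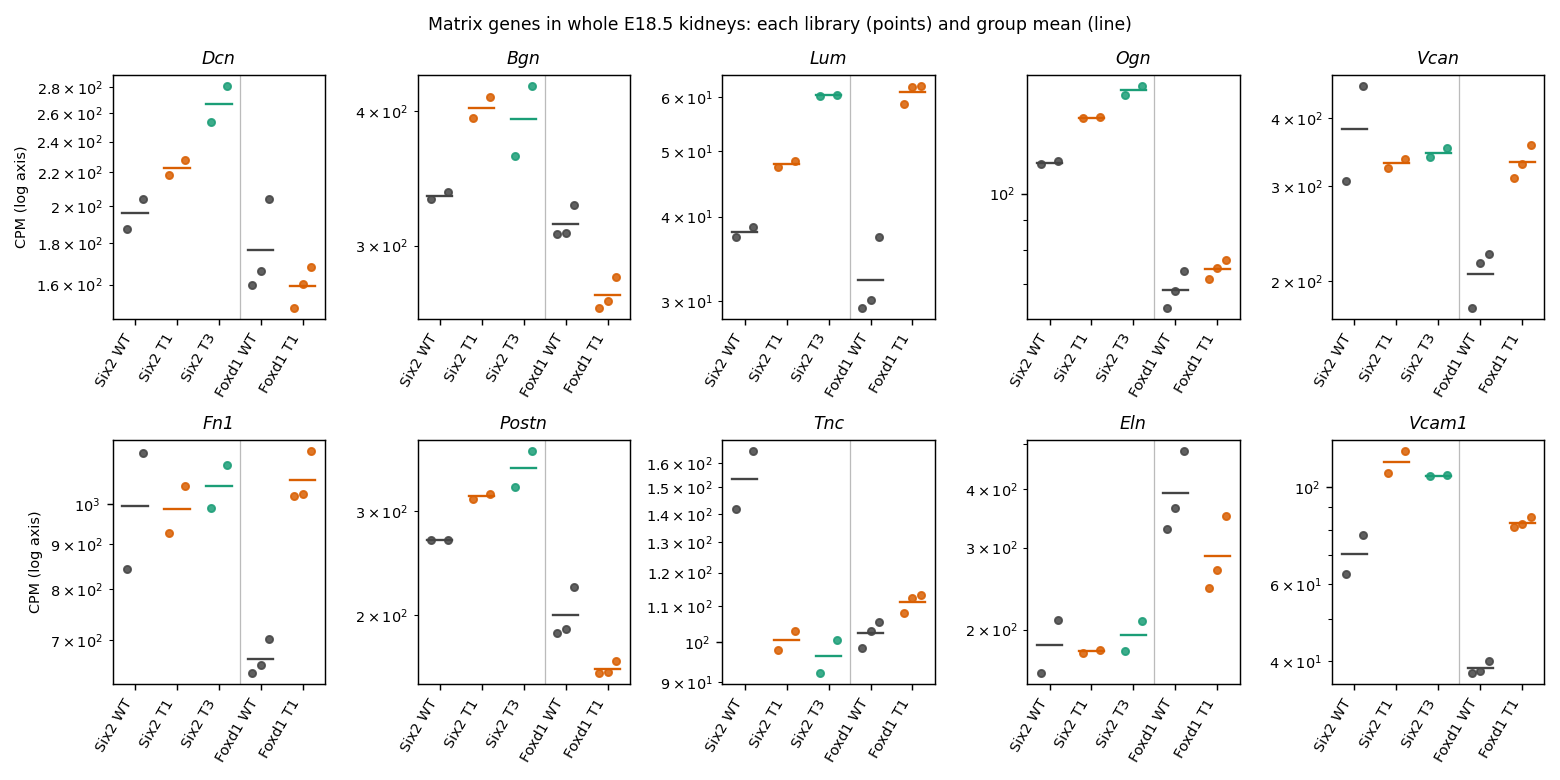
CPM of each matrix gene (log axis, its range set per panel) in every whole-kidney library at E18.5: points are libraries, lines group means, grey WT, orange T1 and green T3. In Six2 kidneys *Tnc* of both mutants lies below WT and *Lum* and *Vcam1* above, and in Foxd1 kidneys *Lum*, *Vcan*, *Fn1* and *Vcam1* of T1 lie above every WT library.

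Other tissue genes moved in these kidneys as well. Nephron epithelium markers fell in 9 of 10 cases in both mutants, from a sum of 4168 to 4181 CPM to one of 1524 to 1786 CPM, and macrophage markers rose in 6 of 8, from 129 to 131 CPM to 182 to 214 CPM. The stromal identity genes summed to 1937 and 2207 CPM in WT and to 2357 to 2458 CPM in the mutants, with *Pdgfra* called in T1 (0.59) and *Pdgfra* and *Tcf21* in T3 (0.64 and 0.69). Pericyte and smooth muscle markers fell in 2 of 8 cases in each mutant, from a sum of 1636 to 1637 CPM to one of 1064 to 1180.1 CPM, and nephron progenitor markers fell in 6 of 8 and rose in 1. Skeletal muscle and cartilage markers summed to 59.1 and 125 CPM in the WT libraries. Their part in the matrix results was not tested.

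In whole Foxd1 kidneys, where the stroma carried the mutation, 4 of 10 members were higher and 0 lower, with 2.65% of 20145 genes called higher and 7.53% lower. *Vcam1* was 2.16-fold higher, from 37.5, 37.9 and 40.0 CPM to 81.1, 82.2 and 85.7 CPM (1.11 ± 0.05, adjusted p = 1.65e-08). *Lum* went from 30.1, 37.3 and 29.3 CPM to 62.5, 62.1 and 58.7 CPM (0.92 ± 0.08, adjusted p = 2.22e-06). *Vcan* went from 225, 179 and 216 CPM to 357, 309.5 and 329 CPM (0.68 ± 0.08, adjusted p = 2.77e-05). These were the 4 genes called in the sorted Foxd1 cells, the last being *Fn1*, at 656, 702 and 642 CPM in WT and 1025, 1022 and 1149 CPM in T1 (0.68 ± 0.06, adjusted p = 3.15e-06). The WT and mutant libraries of each were apart.

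*Bgn* (308, 327 and 308 CPM against 263, 280.5 and 266 CPM), *Postn* (189.6, 223 and 186 CPM against 167, 159.7 and 161 CPM) and *Eln* (365, 484 and 329 CPM against 350.5, 246 and 268 CPM) were lower in T1 with adjusted p-values of 0.00563, 0.00383 and 0.0207, at changes of -0.22, -0.30 and -0.45 that stayed under 1.5-fold. *Eln* passed both limits without T1 replicate 1 (-0.61). *Dcn* (159.9 to 204 CPM against 149.9 to 168 CPM), *Ogn* (63.8 to 73.7 CPM against 71.3 to 76.9 CPM) and *Tnc* (98.5 to 105 CPM against 108 to 113 CPM) did not pass. Smooth muscle and pericyte markers fell in 4 of 8 cases in these kidneys (a sum of 1376 to 1721 CPM in WT and 769.5 to 844 CPM in T1), nephron progenitor markers rose in 6 of 8 and macrophage markers in 0 of 8. Nephron epithelium markers fell in 4 of 10 cases (4111 to 4379 CPM in WT, 2509 to 3195 CPM in T1), and skeletal muscle and cartilage markers rose in 3 of 7. Their part in the matrix results was not tested.

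Set against each other in 1 model, the whole-kidney effects of T1 differed between the Cre lines for 6 members, with 4.82% of 22826 genes called positive and 3.55% negative. The Foxd1 effect was above the Six2 effect for *Vcan* (0.89 ± 0.21, adjusted p = 0.0182), *Tnc* (0.72 ± 0.11, adjusted p = 0.000945), *Fn1* (0.68 ± 0.17, adjusted p = 0.0288) and *Lum* (0.57 ± 0.12, adjusted p = 0.0125), and below it for *Postn* (-0.56 ± 0.11, adjusted p = 0.00624) and *Bgn* (-0.51 ± 0.09, adjusted p = 0.00352). Run, read length, Cre line and, in part, sex coincide here. *Vcan* did not pass without Six2 T1 replicate 1 (0.0520) or 2 (0.0731), nor *Lum* without Six2 T1 replicate 1 (0.0548), and *Fn1* was lost without any of 6 libraries, with adjusted p-values from 0.0522 (Six2 WT replicate 2) to 0.132 (Six2 T1 replicate 1). *Vcam1* (0.40 ± 0.13, adjusted p = 0.0711) passed with DESeq2 (0.0215) and without Six2 WT replicate 1 (0.00197).

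Related matrix genes from other lists were read beside the members, and their counts against the shares of all genes called: 4.11% higher and 2.28% lower at E14.5, 6.14% and 5.54% in Six2 cells of E18.5, 3.63% and 2.18% in sorted Foxd1 cells, and 2.65% and 7.53% in whole Foxd1 kidneys. In sorted Six2 cells of E14.5, 9 of 23 elastic fibre genes rose and 0 fell (4.11% and 2.28% of all genes), led by *Mfap5* (2.66 ± 0.33), a microfibril protein, and *Fbln5* (2.49 ± 0.33), which organizes elastin, followed by *Emilin3* (1.34) and *Emilin2* (1.23). At E18.5, 6 of 23 rose (6.14% of all genes), with *Mfap5* (1.90 ± 0.26) first, and *Loxl2*, a collagen cross-linking oxidase, fell (-1.88 ± 0.11). In sorted Foxd1 cells 0 of 22 tested rose and 2 fell (3.63% and 2.18% of all genes), *Loxl1* (-0.61) and *Fbln5* (-0.60), and in whole Foxd1 kidneys 0 of 23 passed in either direction (2.65% and 7.53% of all genes). The median of the list was 0.55 at E14.5 and 0.42 at E18.5 in Six2 cells, and -0.08 in Foxd1 cells.

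Among 14 other small leucine-rich proteoglycans, *Aspn*, a neighbour of *Ogn* on chromosome 13, rose at E14.5 (3.15 ± 0.56, adjusted p = 0.00783) and its effect was smaller at E18.5 (a difference of -2.93 ± 0.65, adjusted p = 0.0131). *Omd*, the gene between them, also differed between stages (-2.44 ± 0.57, adjusted p = 0.0178), but passed at neither, at 1.40 (adjusted p = 0.0617) and -1.05 (adjusted p = 0.0865). *Prelp* (3.82 ± 0.47) and *Fmod* (1.06 ± 0.13), collagen-binding members, rose at E18.5, and *Podn* fell (-0.70). Of 12 tested in sorted Six2 cells, 1 rose and 0 fell at E14.5 (4.11% and 2.28% of all genes). At E18.5, 2 rose and 1 fell of 12 (6.14% and 5.54%). Levels were low: the 14 genes summed to 9.87 to 13.4 CPM in WT and 16.8 to 19.5 CPM in T1 at E14.5. At E18.5 the sums were 19.6 to 22.7 CPM and 30.3 to 31.2 CPM. *Kera*, next to *Lum*, was tested at E14.5 and did not pass (1.34 ± 0.62, adjusted p = 0.212). In sorted Foxd1 cells *Fmod* rose (1.14 ± 0.11) and *Aspn* fell (-0.70 ± 0.14). Of 13 tested, 3 fell in whole Foxd1 kidneys, where 7.53% of all genes did, namely *Omd* (-1.13), *Podn* (-1.03) and *Prelp* (-0.65).

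Of the partners of versican, *Has2*, which makes hyaluronan, fell with it in sorted Six2 cells, by -1.72 ± 0.13 at E14.5 and -2.85 ± 0.14 at E18.5, and the link protein *Hapln1*, which fixes versican to hyaluronan, fell at E18.5 (-1.36 ± 0.19). In whole Foxd1 kidneys *Has2* rose (0.65 ± 0.09) as versican did, and in sorted Foxd1 cells it fell (-0.97 ± 0.16) while versican rose. The chondroitin sulfate proteoglycan *Cspg4* rose in Six2 cells at both stages (1.25 and 1.15). Over the list, 1 of 12 tested rose and 1 fell at E14.5, near the shares of all genes (4.11% and 2.28%), and 3 of 15 rose and 5 fell at E18.5 (6.14% and 5.54% of all genes).

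Among 18 heparan sulfate and testican proteoglycans, *Spock2* fell in sorted Six2 cells at E14.5 (-0.99) and E18.5 (-1.51), and *Gpc4* (-1.23) and *Gpc5* (-1.22) led the fall in whole Six2-ENL T1 kidneys. Glycoproteins of the matricellular group rose in 10 and fell in 2 of 29 cases at E14.5 (4.11% and 2.28% of all genes), with *Ecm1* (2.26), *Matn2* (2.11), *Ccn3* (2.11) and *Smoc2* (2.07) first. At E18.5, 8 rose and 7 fell of 30 (6.14% and 5.54% of all genes), the largest changes being *Comp* (-2.27), *Sparcl1* (2.03), *Spp1* (-1.99) and *Frem1* (-1.87). In sorted Foxd1 cells 2 of 23 rose and 5 fell (3.63% and 2.18% of all genes), and *Thbs4* rose there (1.46) and in whole Foxd1 kidneys (1.44).

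Several receptors of these proteins changed. *Itga8*, the integrin chain of nephron progenitors that binds fibronectin, fell in sorted Six2 cells at E14.5 (-1.06 ± 0.08) and E18.5 (-0.97 ± 0.08), opposite to *Fn1*. *Itga4*, the chain that binds VCAM1 and fibronectin, fell at E14.5 (-2.34 ± 0.34), and rose at E18.5 (1.58 ± 0.16) and in sorted Foxd1 cells (1.41 ± 0.14). Macrophage markers, whose cells carry this chain, were called higher in 0 of 8, 6 of 8 and 6 of 8 cases in these comparisons, and their part in the result was not tested. *Ddr2*, a collagen receptor, rose in Six2 cells at both stages (1.53 and 1.07), and *Itgb6* fell in every E18.5 comparison of T1 with WT, from -0.82 in whole Foxd1 kidneys to -1.31 in sorted Six2 cells. Of 20 receptors, 2 rose and 2 fell at E14.5 (4.11% and 2.28% of all genes), 4 and 7 in Six2 cells of E18.5 (6.14% and 5.54% of all genes), and 1 and 1 of 19 in sorted Foxd1 cells, the last near the shares of all genes (3.63% and 2.18%).

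Over all 32 libraries, with each experiment centred on its own mean, the log2 CPM of *Dcn*, *Bgn*, *Lum*, *Ogn*, *Postn* and *Eln* ran together, with Pearson's r between 0.799 and 0.930 in their 15 pairs. *Tnc* ran against these 6, at -0.869 to -0.662. Among 12538 genes, those most like the members were *Matn2* (0.964) and *Col6a2* for *Dcn*, *Col6a1* (0.957) and *Cd248* for *Bgn*, *Dkk3* (0.954) and *Adamtsl1* for *Lum*, and *Wnt5a* (0.924) and *Ctso* for *Ogn*. For *Postn* they were *Igf1* (0.902) and *Matn2*, for *Eln* *Adamtsl5* (0.935) and *Olfml3*, for *Fn1* *Tmeff2* (0.930) and *Ebf3*, and for *Vcam1* *Cpa6* (0.827) and *Sema3c*. *Vcan* was most like *Eya4* (0.917) and *Dcx*, and *Fam213a* was among the genes like *Tnc* (0.931). These r are descriptions: libraries of an experiment share genotype and stage, so the group differences above make up much of them.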

How the data were processed

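Polyadenylated RNA of 32 libraries was analysed. Per the labels and the study's methods, whole-kidney libraries were stranded (KAPA), those of tdT+ cells, sorted after DAPI was added, were made with SMART-Seq v4, and reads were aligned to mm10 with HISAT2. The authors made the deposited counts, whole reads per Ensembl gene, with HTSeq and without strand. Their annotation release is not given in the sources used here. Symbols came from GENCODE vM21 (GRCm38), which left 270 of 55806 identifiers unnamed.

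Counts were filtered (filterByExpr, minimum count 10 and total 15), scaled by TMM and fitted with edgeR 4.0.16 (R 4.3.3, limma 3.58.1) as deposited. Quasi-likelihood tests were adjusted by Benjamini-Hochberg, the stage contrast in WT being called at 0.01 and 2-fold. Whole Six2 kidneys shared 1 fit, and so did each interaction. The edgeR scripts were tested on simulated data. Alternatives were no fold threshold, other scalings, no filter, DESeq2 1.42.0, edgeR's exact test, fits of fewer groups, a replicate block and each library left out. Tables were handled with Python 3.11.15 and pandas 2.3.3, and figures with matplotlib 3.10.9.

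The members and lists were chosen with earlier results of these data known. All 10 members were named in every comparison, from other lists up to 4 called genes with the largest change per genotype comparison, and per member the 2 genes of most like pattern. *Foxd1*, *Pdgfrb*, *Tcf21*, *Meis1*, *Itga8*, *Omd*, *Kera* and the members' neighbours were named beyond that rule after their values were seen. Results that need withheld items are not reported here.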

Additional observations from a re-analysis of the deposited data

Results flagged for a closer look

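In sorted Foxd1-ENL T1 cells, replicate 1 had 379 CPM of *Ogn*, set apart from the other 3 libraries, which lay between 286 and 301 CPM. Such a gap is met by chance in about 1 in 20 groups. It was searched for in all 10 members in sorted Foxd1 WT and T1 cells, the only groups of 4 libraries. No other gap of this size was found among them.

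The effect of T1 differed between groups, by the interaction test of edgeR, for the following genes. Between stages in sorted Six2 cells the E18.5 effect minus the E14.5 effect was -2.33 for *Ogn* and -1.86 for *Postn* on the log2 scale. Between lineages in sorted E18.5 cells the Foxd1 effect minus the Six2 effect was 1.15 for *Vcan*, 1.14 for *Tnc*, -1.78 for *Eln*, -1.28 for *Dcn* and -0.85 for *Bgn*. Between Cre lines in whole kidneys the same difference was 0.89 for *Vcan*, 0.72 for *Tnc*, 0.68 for *Fn1*, 0.57 for *Lum*, -0.56 for *Postn* and -0.51 for *Bgn*.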

How the results depend on the processing

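Of 740 member fold changes under other settings, 697 kept their direction and side of the threshold, and of 920 with a library left out, 853 did. Without a fold threshold the members called were 3 higher in whole Six2-ENL T1 kidneys, 5 higher in T3, 2 lower in sorted Six2 cells of E18.5 and 3 lower in whole Foxd1 kidneys. More of all genes were called without it too, as counted at the end of this section. With library size alone the members called were 0 lower in whole T1 kidneys, 1 lower at E14.5 and 5 negative between lineages. With no low-count filter they were 5 negative between stages, 5 between lineages and 4 between Cre lines. Except between Cre lines, given below, shares of all genes are not set beside the counts of these 2 settings.

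With a library left out, the counts ran from 0 to 1 higher and 0 to 1 lower in whole T1 kidneys, and 1 to 2 and 0 to 1 in T3. In sorted Six2 cells they ran from 5 to 8 higher at E14.5 and 5 to 7 higher at E18.5, and 1 to 2 lower at either stage. In sorted Foxd1 cells 3 to 4 were higher, and in whole Foxd1 kidneys 0 to 1 lower. Interaction counts ran from 2 to 5 negative between stages, 3 to 6 between lineages and 1 to 5 positive between Cre lines. Shares of all genes called in these fits are not set beside the counts. Whether the members moved apart from all genes is therefore not shown. Uncalled changes that crossed 0 ran, in whole T1 kidneys, from -0.47 to 0.13 (*Vcan*), -0.21 to 0.25 (*Fn1*) and -0.22 to 0.18 (*Eln*), and in T3 from -0.41 to 0.20, -0.13 to 0.33 and -0.11 to 0.29. For T3 over T1 they ran from -0.15 to 0.063 (*Bgn*), -0.015 to 0.18 (*Fn1*) and -0.13 to 0.00119 (*Tnc*), in sorted Foxd1 cells from -0.20 to 0.28 (*Postn*), between stages from -0.043 to 0.14 (*Vcan*), between WT stages from -0.15 to 0.60 (*Dcn*) and -0.91 to 0.037 (*Lum*), and between lineages from -0.43 to 0.058 (*Ogn*). The cause was not tested.

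*Fn1* in whole T1 kidneys turned from -0.01 to 0.01 with relative log expression factors (0.00675), DESeq2 (0.00676) or the 2 genotypes alone (0.00749) and to 0.062 with library size, *Eln* there to 0.028, *Postn* in sorted Foxd1 cells to 0.000863 and *Dcn* between WT stages to -0.041 with library size. None of these passed the test.

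Deviations of same-numbered libraries correlated at -0.0791 to 0.139, which gave no sign of pairing by replicate number. With so few libraries of a group this cannot exclude shared litters or preparation days, which the labels do not give. With a replicate block, 8 members were called higher at E14.5 (*Vcam1* added, 0.95, adjusted p = 0.0443), 7 at E18.5 (*Ogn* added, 0.66), 3 negative between stages (*Bgn*, -1.09), 4 between lineages (*Lum*, -0.83) and 5 positive between Cre lines (*Vcam1*, 0.39). *Postn* in sorted Foxd1 cells turned to 0.074, and the block changed no other member's call. Shares of all genes under the block are not set beside these counts. Over all genes, calls between T3 and T1 went from 1 higher and 0 lower to 6 and 8 with the 2 genotypes alone, beside the larger counts given above. Negative calls between stages went from 1064 to 1767 with DESeq2, and calls between Cre lines from 1100 positive and 810 negative to 1655 and 1475 with no low-count filter, and to 1812 positive with DESeq2. Without a fold threshold, higher and lower calls went from 690 and 1169 to 1201 and 2192 of 23931 genes (whole T1). In T3 they went from 1039 and 1264 to 1739 and 2450 of 23931. In sorted Six2 cells they went from 921 and 511 to 1429 and 1455 of 22387 (E14.5) and from 1392 and 1256 to 2173 and 2430 of 22685 (E18.5). They went from 462 and 277 to 755 and 608 of 12717 (sorted Foxd1) and from 534 and 1517 to 3300 and 3432 of 20145 (whole Foxd1). Lower calls between WT stages went from 5197 to 8235 of 25222. With 2557443 to 3508381 counts, sorted Foxd1 libraries limit what could be detected in rarer genes.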
